A study of Mus musculus with 12 samples.

Results

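The 4 tumors described here were A20 tumors injected with PBS, the vehicle control of the study, and they were the samples labelled PBS-1 to PBS-4, 4 of the 12 tumors of the series. A20 is a B-cell lymphoma line of BALB/c origin, so each tumor held lymphoma cells of 1 line together with the blood vessels, stroma and immune cells of the host mouse. Female Balb/c mice, bought at an age of 7 to 8 weeks, received 5000000 A20 cells under the skin, and injections into the tumor began about 7 days later. Each of the 4 mice was given PBS 3 times, every other day, and its tumor was taken 2 h after the last dose, so the profile is that of tumors after repeated vehicle injection and not of untouched ones. Their RNA was read with the mouse PanCancer Immune Profiling Panel on the nCounter system, where colour-coded probes bound to single RNA molecules are counted. Of its 770 genes, 20 are reference genes that serve only for scaling, and the ranking covers the other 750. No other group entered any value given here.

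A B-cell lymphoma keeps much of the program of the cell it came from. B cells carry CD20 and the CD79 partners of the antigen receptor, and they are professional antigen-presenting cells that load peptides onto MHC class II molecules with the help of the invariant chain, CD74. Macrophages, T cells and NK cells enter such tumors from the host. T cells recognise the presented peptides, NK cells use activating and inhibitory receptors, and both kill with perforin and granzymes.

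The deposited counts summed to 812522 to 1086462 per tumor. A scaled count is the deposited count after each tumor was brought to the geometric mean of 11 stable reference genes, with factors of 0.879 to 1.11. The median panel gene then stood at 209, 155, 166 and 192 scaled counts in tumors 1 to 4, a shift of 0.21, −0.22, −0.12 and 0.09 on the log2 scale from the mean of the tumors. Relative to the reference genes, the panel median was thus lowest in tumor 2 and highest in tumor 1. Of the 651 genes with a mean of at least 20, 42.9% were highest in tumor 1 and 39.9% lowest in tumor 2. Differences between tumors are to be read against that shift of the median. Across the 750 genes, Spearman's rho between pairs of tumors was 0.982 to 0.992, a description over genes, which are not independent replicates. The labels name a separate mouse for each tumor.

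The panel was led by the MHC class II pathway. Cd74, the invariant chain, was the most abundant gene with 89894 ± 6207 scaled counts (SD, n = 4), and it alone took 11.2% ± 0.643 (SD) of the panel count. Its values were 89915, 82309.7, 97514 and 89837 in tumors 1 to 4, lowest in tumor 2 and highest in tumor 3. H2-Aa, the alpha chain of I-A, came next with 47967 ± 4594, and its values of 50259.7, 41212, 51311 and 49086 again had their lowest in tumor 2. The first 4 places, held by Cd74, H2-Aa, Lyz2 and Mif, had the same order in all 4 tumors. H2-Ea-ps (22269.6 ± 3859) was at rank 5, H2-Ab1 (13512 ± 1428) at rank 8 and H2-Eb1 (9795 ± 1273) at rank 13. H2-Ea-ps probes the alpha chain of I-E, whose symbol marks it as a pseudogene in the C57BL/6 reference mouse, whereas BALB/c mice carry a working gene. The 10 genes of the MHC class II list together took 23.9% ± 1.57 (SD, n = 4) of the panel count. The peptide-loading genes H2-DMb2 (4999.8 ± 336) and H2-Dma (3016 ± 363) followed. Ciita, the master regulator of class II transcription, had 463 ± 90.6 scaled counts at rank 252. H2-DMb1, the other DM beta gene, had 31.04, 16.7, 21.1 and 22.6 in tumors 1 to 4, near 20 counts, far under H2-DMb2. All 10 genes of the list were lowest in tumor 2, against 39.9% of the 651 panel genes with a mean of at least 20. With scaling to the panel median instead of the reference genes, the list sum was lowest in tumor 1.

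Promoters of this pathway share a Y box, a short element bound by NF-Y next to the X boxes that recruit the CIITA complex. The stretches that follow are shown because these genes head the ranking or belong to the same list, and they are the 150 bases before the transcription start from RefSeq on GRCm38.p6, 5′ to 3′ on the gene's own strand, with TGATTGG in capitals. This reference is a C57BL/6 genome, and BALB/c mice carry another MHC haplotype. The positions are chr17:34287824-34287973 on the minus strand for H2-Aa, and on the plus strand chr17:34305717-34305866 for H2-Eb1, chr17:34145099-34145248 for H2-DMb2 and chr17:34238755-34238904 for H2-Ob.
H2-Aa: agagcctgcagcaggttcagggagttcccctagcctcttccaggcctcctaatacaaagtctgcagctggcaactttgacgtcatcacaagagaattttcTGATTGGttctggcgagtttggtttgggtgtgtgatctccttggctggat
H2-Eb1: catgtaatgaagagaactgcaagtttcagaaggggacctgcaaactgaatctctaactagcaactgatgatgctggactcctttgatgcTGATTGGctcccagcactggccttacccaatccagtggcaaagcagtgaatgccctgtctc
H2-DMb2: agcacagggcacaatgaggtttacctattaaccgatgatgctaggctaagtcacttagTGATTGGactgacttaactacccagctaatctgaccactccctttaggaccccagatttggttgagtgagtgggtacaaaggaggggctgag
H2-Ob: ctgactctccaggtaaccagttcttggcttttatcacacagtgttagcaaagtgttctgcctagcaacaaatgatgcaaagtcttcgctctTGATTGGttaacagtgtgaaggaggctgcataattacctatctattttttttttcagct
TGATTGG or its complement CCAATCA was present in the window of 250 bases before to 50 after the start of 5 of the 6 genes of the list with an entry. The exception was H2-Dma. Of all 32851 promoter windows of the same length, 7.82% held it, and of the 568 genes of the count table with a window, 9.68%. The letters were chosen after these windows had been read, from 4 overlapping strings, the others being ATTGG, in 37.4% of windows, CTGATTGG, in 4.10%, and a still longer form, in 0.438%, so the match is a description of the sequences only.

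**Figure D1:**
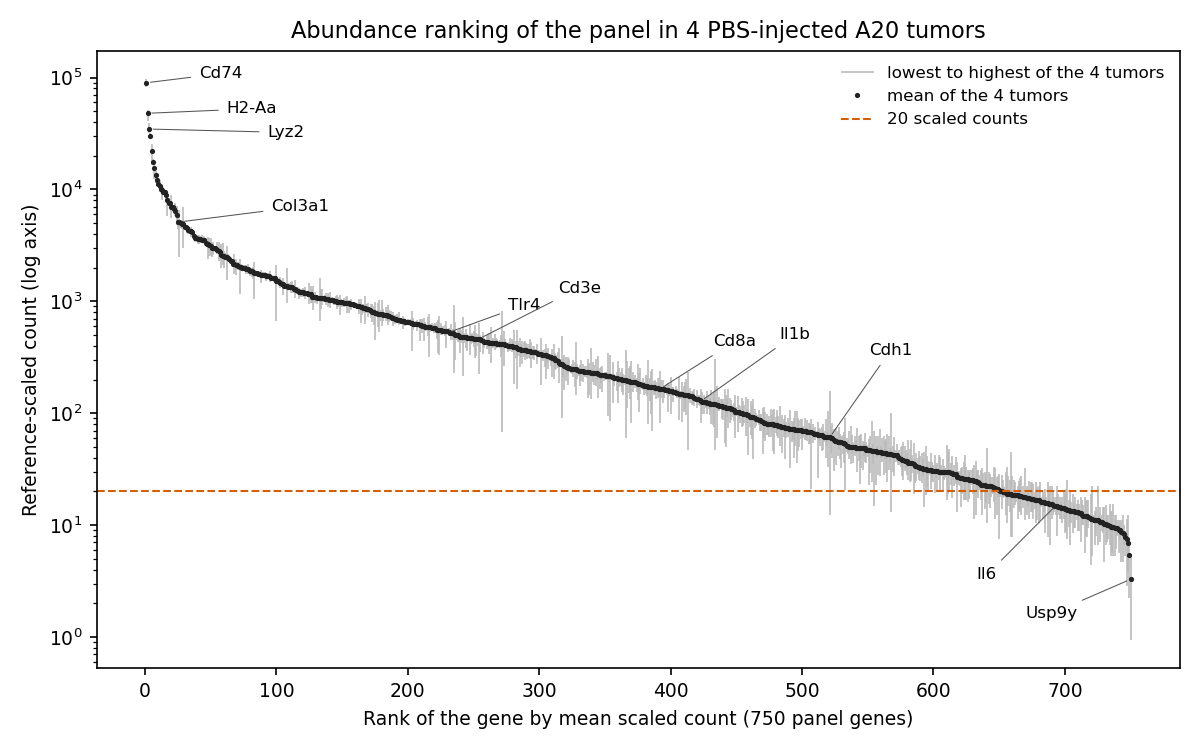
Reference-scaled count (log axis) of each of the 750 panel genes against its rank by mean. Points are means of the 4 PBS tumors, grey lines run from the lowest to the highest tumor, and the dashed line marks 20 scaled counts, under which 99 gene means lay. Cd74 stands at 89894 and Usp9y, the last gene, at 3.28.

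The profile was steep. The 25 most abundant genes held 51.5% ± 0.982 (SD, n = 4) of the panel count and the first 100 held 76.8% ± 0.833, while the lower 375 genes held 2.76% ± 0.245. By mean scaled count, 12 genes were at 10000 or more, 132 between 1000 and 10000, 310 between 100 and 1000, 197 between 20 and 100, and 99 under 20. Of the 25 most abundant genes, 23 were among the first 25 in every single tumor. Close ranks were not resolved, since only 7 of the 24 neighbouring pairs among these genes kept their order in all 4 tumors. A rank compares probes, which count molecules without regard to transcript length but need not bind equally well.

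Of these 25 genes, 5 belonged to the MHC class II list, 3 to the MHC class I presentation list and 3 to the B cell list. The class I genes were H2-D1, a classical class I heavy chain (15690.1 ± 2368), Psmb8, a subunit of the immunoproteasome (10082 ± 491), and the nonclassical H2-T23 (5157 ± 584). H2-K1, the other classical heavy chain of the list, had 3015 ± 333. Among the rest, Lyz2, the lysozyme of myeloid cells, was at rank 3 with 34668 ± 3506. It was followed by Mif, a cytokine made by many cells (29896 ± 1279.8), by the histone chaperone Anp32b (17758 ± 827), and by C1qbp, a largely mitochondrial protein (12136 ± 185). C1qbp was the steadiest of the 25, with 12088, 12048, 12408 and 11999 in tumors 1 to 4 and a CV of 1.52%. Nfkb2, the p100 precursor of the noncanonical NF-kB pathway, had 11224 ± 431, and Ltb, the lymphotoxin that feeds that pathway through its receptor, had 9429.7 ± 478. The actin bundler Lcp1 (9489 ± 333), the glycolytic enzyme Gpi1 (7493 ± 322) and the proteasome subunit Psma2 (6904 ± 155) had CVs between 2.24% and 4.29%. The lysosomal protease Ctss, which trims the invariant chain, had 9715, 7737, 9073 and 9035, highest in tumor 1 and lowest in tumor 2. The 2 of the 25 with the widest spread were Tfrc, the transferrin receptor, with 6257, 5573, 8978 and 6975, highest in tumor 3, and the intermediate filament Vim with 8779.6, 8257, 5844 and 9163. Lgals3, a galectin of macrophages and other cells, had 6404 ± 877, and Ccl8, the leading chemokine, had 5959 ± 1028.

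The markers of B cells were present throughout, as the label of the tumors gives them. All 18 genes of the B cell list had at least 20 scaled counts in every tumor, against 81.2% of the panel. Under that line in all 4 tumors were 8.27% of the panel. None of the 18 B cell genes had an excess CV of 0.3 or more, a measure of spread beyond counting error. Of the panel genes with a mean of at least 20, 14.7% reached it. At a mean of 1000 or more, where 9 of the 18 lay, the share was 4.17%. Ms4a1, which encodes CD20, had 9409, 12178, 10709 and 10440.3 in tumors 1 to 4, highest in tumor 2. Cd79b, a partner of the antigen receptor, had 7497, 8445, 7174 and 7431, and the tetraspanin Cd37 had 6686, 7061, 6285 and 6963. Both were also highest in tumor 2. The signalling adaptor Blnk (2155 ± 111) and the B cell transcription factor Pax5 (1294 ± 82.6) varied by little. Cd79a, the obligate partner of Cd79b, had only 111, 126, 133 and 132 scaled counts, at rank 427 against 18 for Cd79b. The probes were not checked against each other. The list summed to 37085, 42084, 37557 and 38435, and it was highest in tumor 2 (in tumor 3 without any scaling), where 12 of its 18 genes had their highest value against 16.4% of the panel. Tumor 2 was the tumor with the lowest T cell, NK receptor and cytotoxic sums, given further on.

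Genes that mark the stage of a B cell showed a mixed pattern. Xbp1, a factor of secretory cells, had 3609 ± 301 and Bcl6, the factor of germinal centre B cells, had 1718 ± 88.3. Irf4, which acts in activated B cells and plasma cells, had 396 ± 50.6. The plasma cell gene Prdm1 was lower at 92.5 ± 12.8, and Tnfrsf17, the BCMA receptor of plasma cells, was under 20 in all 4 tumors with 11.1, 6.67, 7.91 and 15.1. The genes of early B cells, Rag1 (17.2 ± 5.02) and Igll1 (17.4 ± 2.62), had means under 20.

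Macrophage genes were present in every tumor. The monocyte and macrophage list summed to 50154, 41659.8, 40436 and 46077 scaled counts, of which Lyz2 was the largest term, and to 10795, 9336, 8759.6 and 10765 without it. The complement genes C1qb (2488 ± 133) and C1qa (1850.4 ± 141), made by tissue macrophages, and the lysosomal Cd68 (1722 ± 189.8) led the rest. Emr1, which encodes F4/80, had 507, 679.9, 347 and 682, and Ccr2, the receptor that draws monocytes from blood, had 764, 571, 321 and 688. Both were lowest in tumor 3. The receptor of CSF1, Csf1r, had 461 ± 48.4. Of the 20 genes, 12 were lowest in tumor 3 against 33.0% of the panel, although with scaling to the panel median the list sum had its lowest in tumor 4 and its highest in tumor 2. In tissue RNA, fewer cells of a type and less RNA per cell cannot be told apart.

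The sums of the dendritic cell and granulocyte lists were lower. In the dendritic cell list the lectins Clec4n (1285 ± 205) and Clec7a (1074 ± 405) led, and the growth factor receptor Flt3 had 576 ± 50.4. The mean list sum was 3702, so these lectins made up the larger part of it. Itgax, which encodes CD11c, had 287, 191, 244 and 189.7. Xcr1, the marker of cross-presenting dendritic cells, was low with 41.02, 23.3, 23.7 and 26.4. The neutrophil list summed to 967, 844, 886 and 933, led by Fpr2 (378 ± 48.0), and to 591, 519, 518 and 492 without it. S100a8 had 98.1 ± 15.6, and the granule genes Ltf, Ctsg and Camp were under 20 in all 4 tumors. The mast cell, basophil and eosinophil list summed to 320.4, 244, 259 and 293. Its mast cell protease Cma1 had 68.7, 66.7, 65.02 and 62.3, while Ms4a2, a chain of the IgE receptor, and the prostaglandin receptor measured under the names Ptgdr2 and Gpr44 were under 20 in all 4.

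The T cell genes differed widely between tumors. The 17 genes of the T cell list summed to 5696, 2365, 3437 and 4786, so the highest tumor had 2.41 times the sum of the lowest, the largest such range among 23 lists (the list made up of the low-count Usp9y alone left aside). With scaling to the panel median that place went to the epithelial and neural list, at 2.46 times. Cd3e, a chain of the CD3 complex, had 645, 223, 383 and 593. Cd8a, the co-receptor of killer T cells, had 231, 82.2, 109.8 and 239 and Cd4 had 256, 171, 182 and 203. Tumors 1 and 4 were high and tumors 2 and 3 low for Cd3e and Cd8a. The highest value lay in tumor 1 for 16 of the 17 genes, against 42.9% of the panel, and the lowest in tumor 2 for 16, against 39.9%. For the T cell list the range was 1.79 times with scaling to the panel median and 2.19 times with scaling to the total count, with the same highest and lowest tumors. Without tumor 2 it was 1.71 times.

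The sums of the NK receptor and cytotoxic lists had the same highest and lowest tumors as the T cell sum. The NK receptor list summed to 1481, 619, 788 and 1017. Its most abundant members were Klrc1 and Klrd1, the pair that forms the NKG2A receptor complex on NK cells and activated killer T cells. Klrc1 had 490.0, 91.1, 209 and 319 and Klrd1 347, 94.4, 176 and 249. Ncr1, which encodes NKp46 and is closer to a marker of NK cells alone, had another order with 69.8, 58.9, 14.9 and 39.6, lowest in tumor 3. The cytotoxic list summed to 1152, 518, 662 and 959.8. In it Prf1, perforin, had 293, 81.1, 130.0 and 255, Gzma 263, 188, 134 and 178, Gzmb 239, 97.8, 162 and 185 and Fasl 45.4, 14.4, 22.8 and 44.4. Gzmm was under 20 in all 4 tumors. Of the NK receptor genes with a mean of at least 20, 7 of 7 were highest in tumor 1 and 5 lowest in tumor 2. Of the cytotoxic genes, 5 of 6 were highest in tumor 1 and 5 lowest in tumor 2. Across the panel, 42.9% of genes were highest in tumor 1 and 39.9% lowest in tumor 2. With scaling to the panel median the highest tumor had 1.78 times the lowest for the NK receptor list and 1.65 times for the cytotoxic list.

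Regulatory and checkpoint genes were detected beside them. Cd274, which encodes PD-L1, led this list with 1157 ± 177, and the B and T cell attenuator Btla had 556, 590.0, 616 and 602, nearly level across tumors. Pdcd1, which encodes PD-1, had 335, 85.5, 164 and 272 and followed the T cell sum in order. Lag3 had 303, 137, 215 and 278, Il2ra, the high-affinity IL-2 receptor chain, 229, 103, 168 and 225 and Foxp3, the factor of regulatory T cells, 47.7, 24.4, 36.9 and 65.1. All 3 were lowest in tumor 2. Ctla4 had 90.9, 67.8, 43.9 and 97.2, and Havcr2, which encodes TIM-3, stayed just under 20 in all 4 with 18.8, 19.998, 19.3 and 16.04. Of the 13 genes of this list with a mean of at least 20, 10 were lowest in tumor 2, against 39.9% of the panel. With scaling to the panel median the range of the list sum was 1.13 times in place of 1.51. The highest tumor was then 4 in place of 1, and 1 gene in place of 6 had an excess CV of 0.3 or more.

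**Figure D2:**
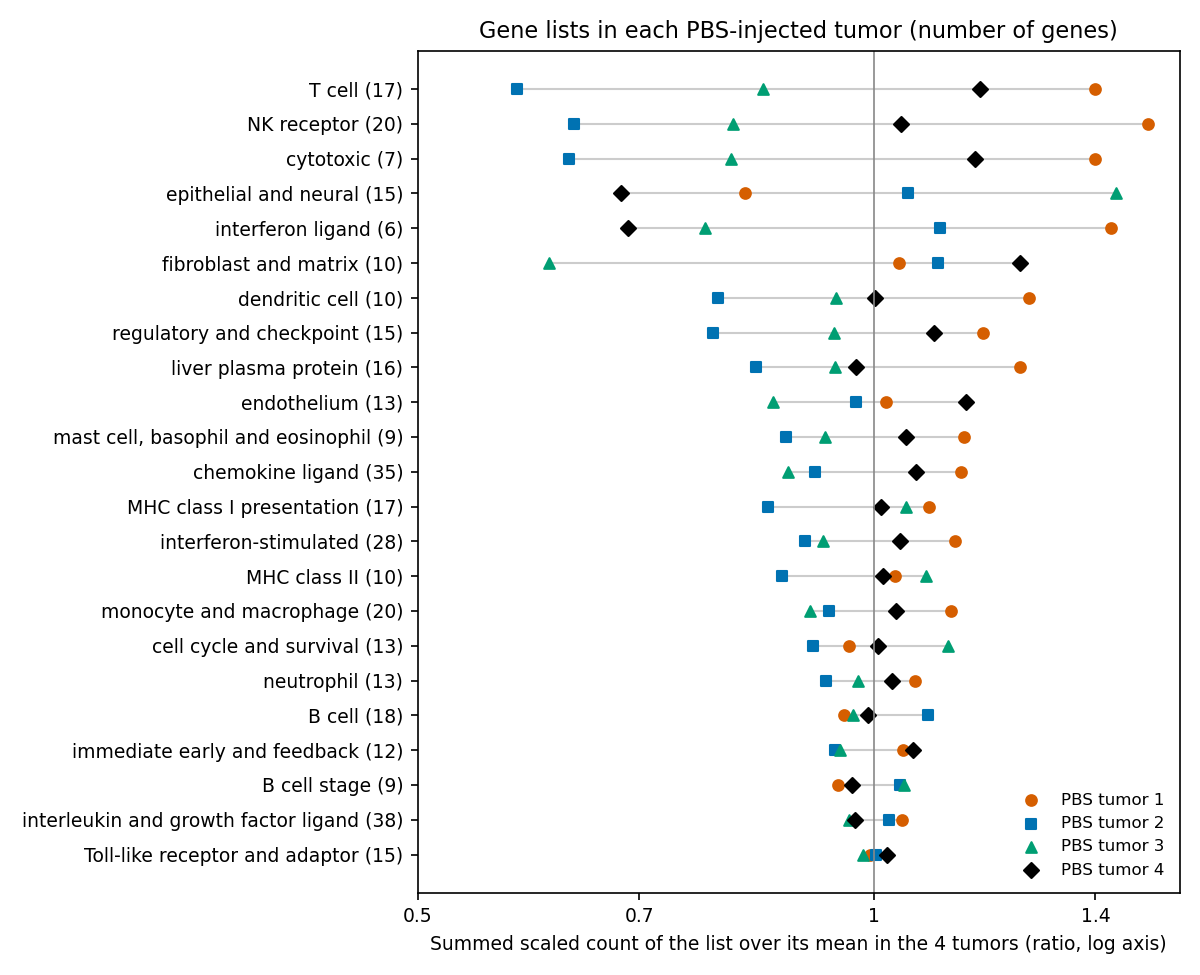
Summed scaled count of each gene list in each PBS tumor, divided by the mean of the 4 tumors (log axis, number of genes in brackets). The T cell, NK receptor and cytotoxic lists run from tumor 2 to tumor 1 with more than 2 times between them, the fibroblast and matrix list is set apart by tumor 3, and the Toll-like receptor list lies close to 1 in all 4.

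Stromal genes followed another tumor. The fibroblast and matrix list summed to 11599.7, 12303, 6812 and 13927, with tumor 3 lowest under each of the 5 scalings tried. Col3a1, a fibrillar collagen just outside the first 25 genes, had 5341, 6122, 2485 and 6538, the other fibrillar collagen Col1a1 had 2563, 2726, 1536 and 3127, and fibronectin, Fn1, had 1589, 1741, 673 and 2127. Tumor 3 had 0.465, 0.599 and 0.424 times the value of the next lowest tumor for these genes. Cxcl12, a chemokine of stromal cells, went the other way with 1004, 849, 1150.1 and 981. Without tumor 3 the highest tumor had 1.17 times the sum of the lowest. The endothelium list summed to 3038, 2901, 2558 and 3427. Pecam1 had 491, 364, 337 and 519, Cd34 405, 436, 265 and 539.8 and Icam2 674, 854, 797 and 721, and the inducible adhesion molecule Sele was under 20 in all 4 tumors. Of the 12 endothelial genes with a mean of at least 20, 8 were lowest in tumor 3, against 33.0% of the panel, although the list sum was lowest in tumor 1 with scaling to the panel median.

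Tumor 3 was also the tumor with the most counts for some genes of epithelium. Cdh1, which encodes E-cadherin and is also found on some Langerhans and dendritic cells, had 22.2, 51.1, 157 and 12.3, and Epcam had 142, 261, 387 and 134. Erbb2 had 24.4, 47.8, 84.3 and 27.4. Tumor 3 was highest and tumors 1 and 4 lowest for all 3 genes. Spink5, a protease inhibitor of the epidermis that was picked out after its values were seen, had 7.76, 14.4, 44.8 and 8.49. Cd207 of the dendritic cell list, picked out in the same way, had 19.95, 28.9, 37.8 and 12.3, with tumor 3 again highest. Of the 9 genes of that list with a mean of at least 20, 6 were highest in tumor 1 and 2 in tumor 3. The chemokines Ccl27a, made by keratinocytes, with 29.9, 29.997, 100.2 and 13.2, Cxcl14 with 186, 59.99, 365 and 175, and Ccl21a, which guides dendritic cells and T cells into lymphatics and lymph nodes, with 70.9, 61.1, 302 and 47.2, were highest in the same tumor. The Ccl21 and Ccl27 genes have near copies in the mouse, among which their probes may not separate transcripts. Gata3, a factor of T cells and also of skin epithelium, had 59.9, 45.6, 105 and 33.03, and it did not follow the T cell sum. Of the other genes of the epithelial and neural list, Muc1 (118, 107, 93.1 and 88.7) and Egfr (73.2, 83.3, 77.3 and 59.5) were not high in tumor 3. Mnx1, Pmch, Mpped1, S100b, Dmbt1 and Msln were under 20 in all 4 tumors. The tumors grew under the skin, and the part of adjoining tissue or of dendritic cells in these values was not tested.

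The sum of the Toll-like receptors and their adaptors had the smallest range of the lists with scaling to the reference genes. Its 15 genes summed to 6619, 6674, 6544 and 6792, a mean of 6657 ± 104 (SD, n = 4). None of them had an excess CV of 0.3 or more, against 14.7% of the panel genes with a mean of at least 20. That share was 13.5% at 100 to 1000 scaled counts, and the median gene mean of this list was 334. With scaling to the panel median the range of the sum was 1.36 times, in place of 1.04, and the smallest was that of the mast cell, basophil and eosinophil list at 1.03. With scaling to the total count it was 1.11 times, against 1.05 for the neutrophil list. Tlr4, the receptor of lipopolysaccharide, had 525, 487, 516 and 581. Its co-receptor Ly96, which encodes MD-2, had 611 ± 48.7, and Ly86, the MD-1 partner of the B cell receptor CD180, led the list with 1988 ± 64.6. Tlr1 (715 ± 24.998) and the DNA sensor Tlr9 (661 ± 51.3) were the most abundant receptors proper. The adaptors Ticam2 (659 ± 40.1) and Myd88 (334 ± 13.03) had similar values in every tumor. The flagellin receptor Tlr5 was the lowest of the list with 29.9, 26.7, 14.1 and 19.8.

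Interferons themselves had low counts, and the genes that interferons induce were detected about as often as the panel. Ifnb1 and Ifna2 were under 20 in all 4 tumors, and Ifng had 32.1, 14.4, 27.2 and 32.1, lowest in tumor 2. Ifna1 had 90.9, 61.1, 38.7 and 20.8, highest in tumor 1. The interferon alpha genes are near copies of each other, and their probes may share transcripts. In the interferon-stimulated list of 28 genes, 25 (89.3%) had at least 20 scaled counts in every tumor, against 81.2% of the panel. The tethering factor Bst2 (2861 ± 334) was among its most abundant members, whereas Mx1 and Epsti1 were under 20 in all 4. Laboratory strains such as BALB/c carry a defective Mx1 gene.

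Among cytokines, Ltb stood well above the rest. The next of its list were Il16 (1786 ± 93.5), the lymphotoxin alpha gene Lta (1051 ± 111), the IL-1 receptor antagonist Il1rn (589.9 ± 102) and Csf1, the growth factor of macrophages (368 ± 72.6). Of the 38 interleukins and growth factors, 10 (26.3%) were under 20 in all 4 tumors, against 8.27% of the panel. The 10 included Il4 (17.7, 18.9, 10.5 and 8.49), Il5 (12.2, 7.78, 6.15 and 11.3) and Il6 (17.7, 15.6, 14.1 and 12.3). Among them were also Il21, Il27 and 2 of the 3 IL-17 genes, Il17b and Il17f.

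Several chemokines had more than 1000 scaled counts, while others lay under the line of 20. Ccl8 with 7043, 4854, 5346 and 6593 was followed by Cxcl9, an interferon-gamma-induced attractant of T cells (2553 ± 542), Ccl9 (2042 ± 589.7), the B cell attractant Cxcl13 (1361 ± 456) and the monocyte attractant Ccl2 (1347 ± 121). Ccl9 had 2322, 2369, 1158 and 2319, lowest in tumor 3, and Cxcl13 had 974, 1971, 1053 and 1444, highest in tumor 2. Of the 35 chemokines, 6 (17.1%) were under 20 in all 4 tumors, against 8.27% of the panel, namely Ccl17, Ccl20, Ccl26, Ccl28, Cxcl2 and Cxcl15. Ppbp, a platelet chemokine, had 131, 232, 46.6 and 169, lowest in tumor 3.

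No gene of the immediate early list or of the cell cycle and survival list had an excess CV of 0.3 or more. Of the 651 panel genes with a mean of at least 20, 14.7% did. That share was 13.5% at 100 to 1000 scaled counts and 4.17% above, and the median gene means of these lists were 432 and 918. Myc, which was the leading gene of the first list, had 3317, 3379.7, 3066 and 3177. Egr1, an immediate early factor, had 520.3 ± 85.7 and Fos 277, 221, 147 and 281, the latter lowest in tumor 3. The cycle and survival list was led by Tfrc, given above, and its sum had a range of 1.23 times, or 1.47 times with scaling to the panel median. In it Bcl2l1, which encodes BCL-XL, had 3556 ± 235, and Bcl2 had 64.1 ± 7.45.

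In all, 62 of the 750 genes (8.27%) were under 20 scaled counts in all 4 tumors, 609 were at least at 20 in all 4, and 79 lay in between. The 62 had means of 3.28 to 18.6 with a median of 11.9, none had a deposited count of 0, and together they held 0.0913% ± 0.0113 (SD, n = 4) of the panel count. A gene under this line may be silent or expressed below what the probe resolves, and no negative control probes were used here to separate those. Just inside the line were Klra15 and Havcr2, both with a highest value of 19.998, and Il21 with 19.95. Just outside were Igll1 and Il22 with 20.8 and Syt17 with 21.1. The last gene of the ranking was Usp9y, which lies on the Y chromosome, with 5.54, 2.22, 4.39 and 0.944. The host mice were female.

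Of the 62, 51 were members of the lists. Leaving aside Usp9y, a list of its own, NK receptors had the highest share, 9 of 20 genes, of which 8 were members of the Klra family of Ly49 receptors (Klra4, Klra5, Klra6, Klra15, Klra17, Klra20, Klra21 and Klra27), and the other was Klrb1. These genes are closely related and differ between mouse strains, so probes may be shared between them or miss the alleles of BALB/c. The epithelial and neural list had 6 of 15, the mast cell, basophil and eosinophil list 3 of 9, the interferon ligands 2 of 6, the interleukin list 10 of 38, the liver plasma protein list 4 of 16 (Masp1, Mbl2, Hc and F12), the neutrophil list 3 of 13 and the chemokine list 6 of 35. By contrast the count was 0 for the B cell, T cell, monocyte and macrophage, dendritic cell, fibroblast and matrix, Toll-like receptor, MHC class II, immediate early and cell cycle lists.

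**Figure D3:**
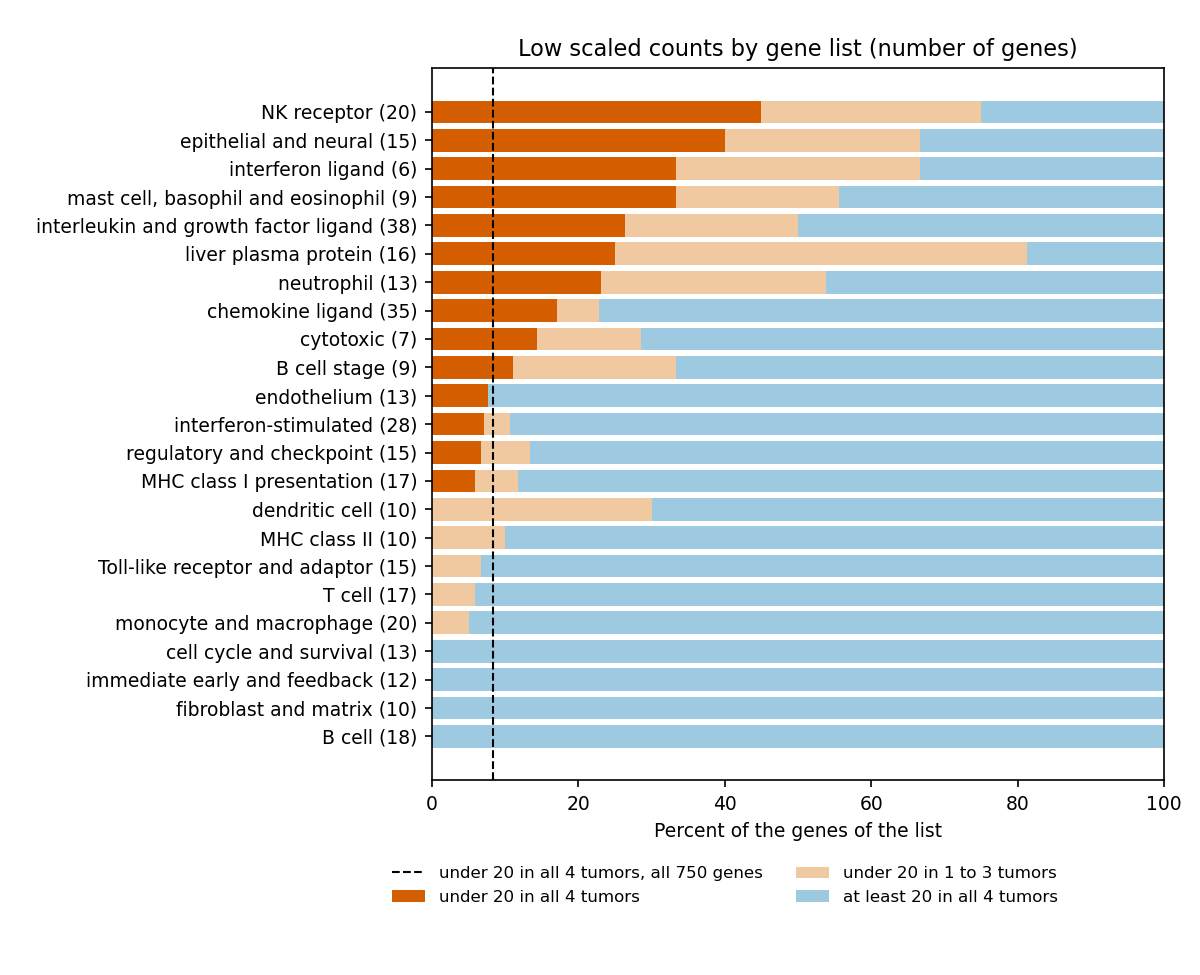
Percent of the genes of each list under 20 scaled counts in all 4 PBS tumors, in 1 to 3 of them, and in none (stacked bars, number of genes in brackets). The dashed line is the 8.27% of all 750 genes under 20 in all 4, which NK receptors exceed with 45% and B cell genes do not reach with 0%.

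Spread between the tumors was measured as the excess CV, the SD beyond what counting alone gives, divided by the mean, over the 651 genes with a mean of at least 20. Its median was 0.114 (quartiles 0.0537 and 0.224), against a median CV from counting of 0.0637, and it was 0 for 72 genes. An excess CV of 0.3 or more was reached by 96 genes (14.7%). The share fell with abundance, from 48 of 197 genes at 20 to 100 scaled counts through 42 of 310 at 100 to 1000 to 6 of 144 above. With 4 tumors each of these values is itself imprecise.

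The T cell, NK receptor, cytotoxic, and regulatory and checkpoint lists held 30 of the 96 genes, out of 43 of their genes that were measured for spread. These 30 were 13 with scaling to the panel median, 21 with scaling to the total count, 23 without tumor 1 and 13 without tumor 2. For the T cell list the count was 14 of 17, with a median excess CV of 0.352. The T cell count was 6 with scaling to the panel median, 9 with scaling to the total count, 9 without tumor 1 and 4 without tumor 2, so it depended on tumors 1 and 2 and on the scaling. By comparison the B cell, MHC class II, MHC class I presentation, Toll-like receptor and neutrophil lists had 0 such genes each. The same was true of the B cell stage, mast cell, immediate early and cell cycle lists. At 1000 scaled counts or more the share over the panel was only 4.17%. Of the B cell genes 9 of 18 lay there, and of the MHC class II genes 7 of 10.

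**Figure D4:**
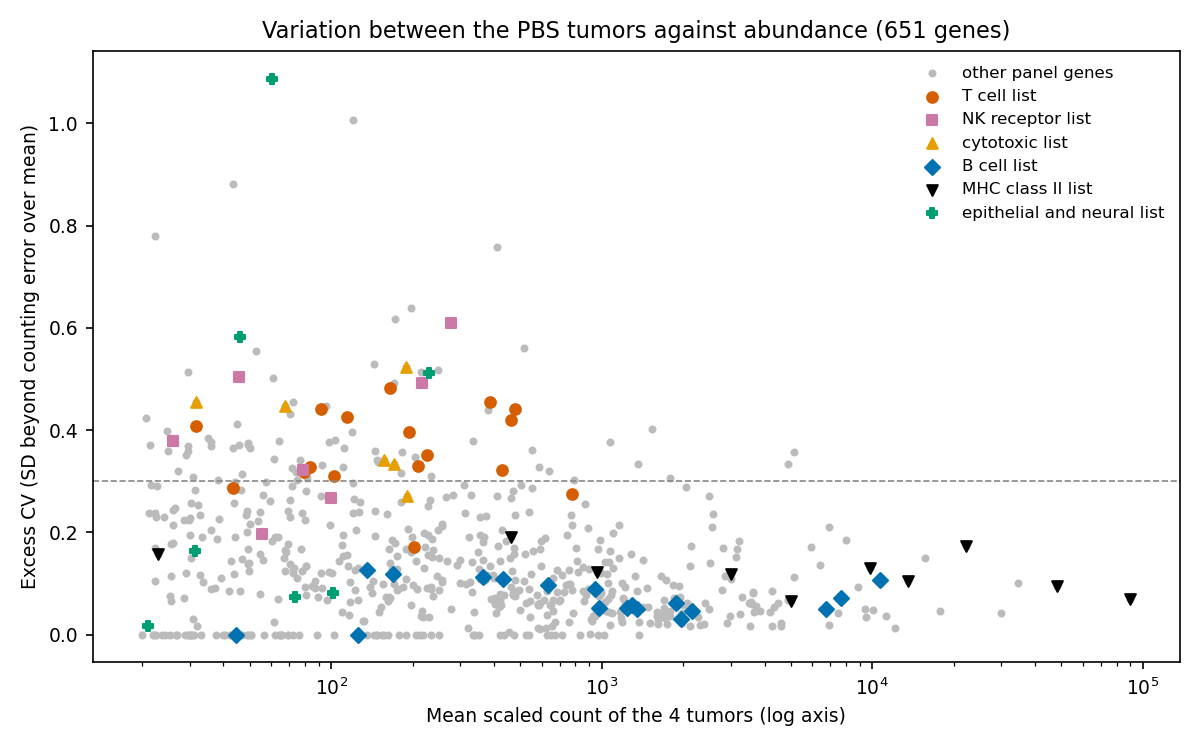
Excess CV of the 651 genes with a mean of at least 20 scaled counts against that mean (log axis), with 6 gene lists marked. T cell, NK receptor and cytotoxic genes lie mostly above the dashed line at 0.3, B cell and MHC class II genes all below 0.2, and Cdh1 is highest at 1.09.

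The 25 genes with the largest excess CV ran from 1.09 for Cdh1 to 0.455 for Cd3g, and their highest tumor had 2.88 to 12.8 times the lowest. Those just outside were Ccl24 and Gzmk, both at 0.448. Besides the T cell, NK, epithelial and chemokine genes given above, they included several enzymes and secreted proteins. Arg1, arginase, had 415, 341, 67.7 and 824, low in tumor 3 and high in tumor 4. Chit1, a chitinase, had 16.6, 13.3, 49.2 and 10.4, which was at or above 20 in tumor 3 alone. That tumor alone brought its mean to 22.4, over the line of 20 for measuring spread. Spp1, osteopontin, had 436, 189, 144 and 222, highest in tumor 1. Serpinb2, an inhibitor of plasminogen activation, had 225, 85.5, 80.8 and 298 and Ptgs2, the inducible cyclooxygenase, 94.2, 32.2, 57.1 and 107. Both had tumor 4 highest. Cfd, adipsin, which fat cells secrete, had 446, 919.9, 469 and 228, highest in tumor 2 and lowest in tumor 4. The complement gene C6 had 52.1, 18.9, 16.7 and 31.1, highest in tumor 1. Cxcr6, a receptor of tissue-homing T cells, had 247, 68.9, 133 and 233, in the order of the T cell sum. Cd3g, another CD3 chain, had 555, 183, 296 and 515.

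The highest of the 4 values for these 25 genes lay in tumor 1 for 11 and in tumor 3 for 8, Chit1 among them. It lay in tumor 4 for 4 and in tumor 2 for 2. The lowest lay in tumor 2 for 10, tumor 4 for 8, tumor 3 for 6 and tumor 1 for 1. For all 651 genes the highest value was in tumor 1 for 279 and the lowest in tumor 2 for 260, the same tumors that stood out for the panel median. Without tumor 3, the excess CV of Ccl21a was 0.167 in place of 1.01, that of Chit1 0 in place of 0.78, that of Gata3 0.266 in place of 0.502 and that of Cdh1 0.668 in place of 1.09. Without tumor 1, that of Spp1 was 0.201 in place of 0.518. With scaling to the panel median, 16 of the 25 genes were still among the 25 most variable, and without tumor 2 the number was 14.

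**Figure D5:**
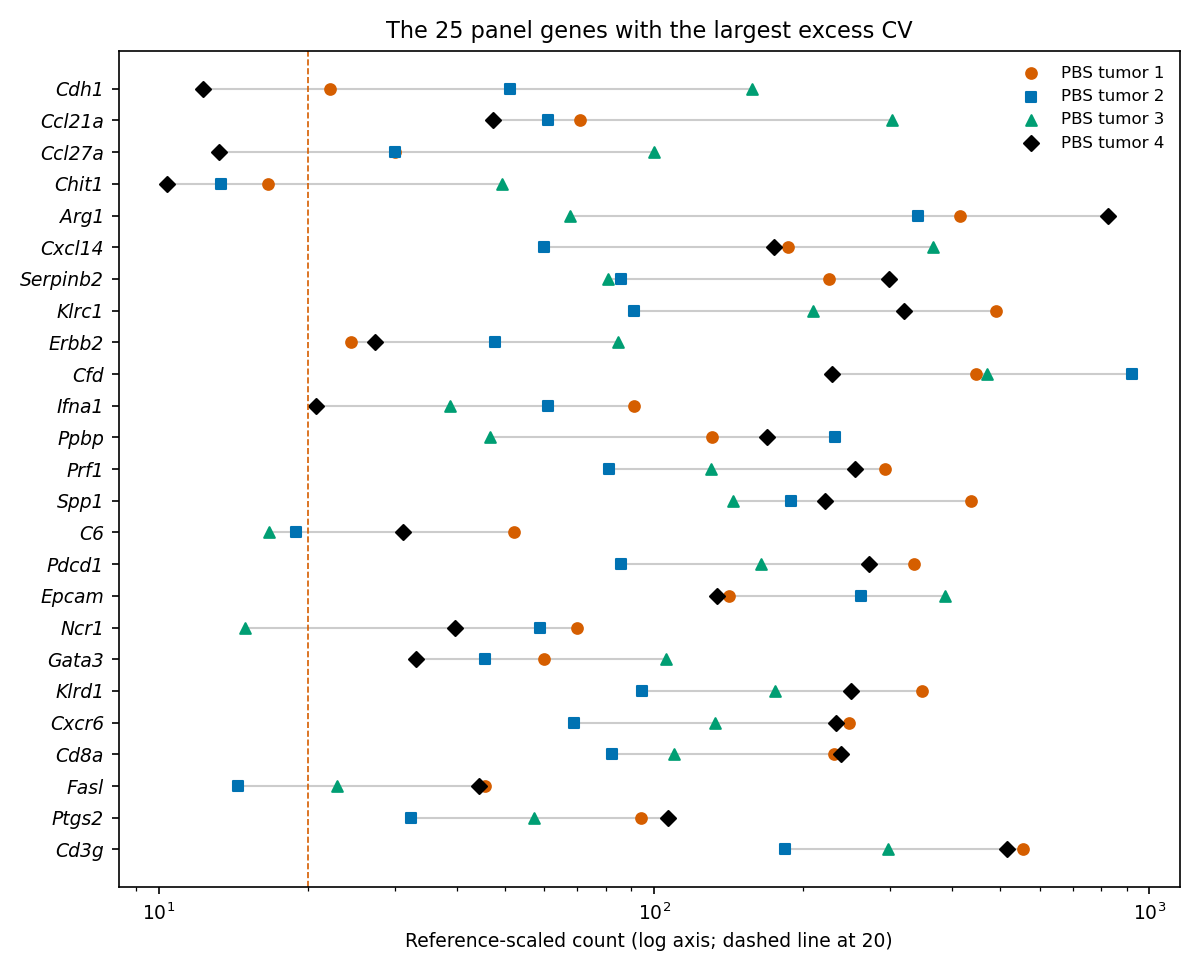
Scaled counts (log axis) of the 25 genes with the largest excess CV in each of the 4 PBS tumors, ordered from the largest at the top. Tumor 3 stands highest for Cdh1, Ccl21a, Ccl27a and Chit1, tumor 4 for Arg1, and tumor 2 lowest for Klrc1, Pdcd1 and Cd8a, and the dashed line marks 20 scaled counts.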

How the data were processed

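Probes for 770 genes were counted in RNA of the 4 PBS tumors on the nCounter system. Values came from a single table in which the authors deposited counts per gene and tumor. Although nSolver normalization is named in the methods, every value is a whole number, and both the totals (812522 to 1086462 per tumor) and the reference genes differ between tumors, so the values were taken as raw. There was no alignment step, and the correction for control probes is not given in the sources used here.

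The 20 reference genes were taken as the genes of the table that the gene table of the study leaves out. A geNorm procedure over the 4 tumors kept 11 of them and left out 9, and the geometric mean of those kept set the scale factor of a tumor. Scaled counts rank the other 750 genes, and 20, the threshold count of the methods, is the low-count line. The excess CV is the square root of the variance between tumors minus the counting variance, not under 0, divided by the mean, for genes with a mean of at least 20. It was tested on simulated data in which genes varied independently. Those data held no shift of the panel median between tumors, so that test does not cover such a shift. With 1 group no comparison was tested and no p value is given, Dixon's ratio for a distant tumor being set against its critical value for 4 samples, and the precision is limited by the 4 tumors and, for genes near 20, by the count.

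The members and the 24 gene lists (367 genes) were chosen with earlier results of these data known. Genes named are the 25 most abundant, the 25 with the largest excess CV, and for each list its defining or most abundant members (up to 5 by mean) and those under 20 in all 4 tumors. Some genes that this rule would name are not reported here. Exceptions are named as chosen after their values were seen, and those just outside a threshold are given only to show where it lies. Of the 750 symbols, 734 matched RefSeq names of GRCm38.p6, 8 more were found under a synonym and 8 were not found.

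Alternatives were all 20 reference genes, no scaling, scaling to the panel median or to the total panel count, leaving out each tumor, thresholds of 10 and 30 or a mean under 20 for low genes, no filter or a mean of at least 100 for spread, edgeR's tagwise biological CV, and an SD of log2(scaled count + 1) of at least 0.43. The counts of variable genes within the T cell list and within the T cell, NK receptor, cytotoxic, and regulatory and checkpoint lists under these scalings and without each tumor were added after seeing the data. Python 3.11.15, numpy 2.4.6, pandas 2.3.3, matplotlib 3.10.9, and edgeR 4.0.16 in R 4.3.3 were used.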

Additional observations from a re-analysis of the deposited data

Results flagged for a closer look

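Dixon's ratio was computed for 164 sets of values in the PBS tumors (141 genes and 23 list sums), and in 7 of them 1 tumor lay apart from the rest. About 5% of such sets, or 8.2, would be picked by chance from normal values, and the 7 are no more than that. The sets overlap, and 25 of the genes were chosen for their spread in these same values, so 8.2 is only a rough guide. Ccl21a and Chit1 are among the 25 most variable genes, a choice to which a distant tumor adds.

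Tumor 3 was the distant tumor for 4 of the 7. It had 302 scaled counts of Ccl21a (47.2 to 70.9 in the other tumors) and 49.2 of Chit1 (10.4 to 16.6), both the highest, and 1158 of Ccl9 (2319 to 2369) and 677 of Tlr1 (723 to 729), both the lowest. Tumor 1 had the highest values of Bst2, with 3360.0 (2653 to 2733), and of Klrg1, an inhibitory receptor of killer cells, with 75.4 (47.8 to 51.0). Tumor 2 had the lowest value of Kit, the receptor of mast cells, with 35.6 (53.6 to 55.4).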

How the results depend on the processing

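Of 650 values recomputed under the alternatives, 600 stayed within 1.5 times (counts and excess CV) or within 1 SD (levels and sums). The other 50 moved further. Of the 650, 200 were gene means and 192 were mean list sums. A change of scaling alters such means little, since each scaling was centred on the mean of the tumors. A factor per tumor does not change the share that given genes hold. The 600 therefore says little about differences between tumors. Of 8 counts of variable T cell genes, 4 moved. Among the first 25 genes, 25 were shared under each of the other 4 scalings and 24 or 25 without a tumor.

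The 62 genes under 20 in all 4 tumors were 4 at a threshold of 10, 109 at a threshold of 30, 99 by a mean under 20, and 61 to 81 without each tumor. The 96 genes with an excess CV of at least 0.3 were 59 with scaling to the panel median (49 shared). Their number was 48 at a mean of at least 100, 64 by edgeR's tagwise biological CV and 91 to 111 without each tumor. The genes shared with the 96 were 67, 65, 70 and 87 without tumors 1, 2, 3 and 4, so the set changed more than its size. The median excess CV of 0.114 was 0.188 by edgeR's tagwise biological CV, which draws each gene towards the others (common value 0.201), and 0.0998 to 0.114 without each tumor. Leaving out each tumor also sets a new common scale. The mean list sum was then 6679 to 7480.2 for B cell stage, 6390 to 6893 for Toll-like receptors and 874 to 961 for neutrophils, in place of 7112, 6657 and 907. For 5 of 23 lists (T cell, NK receptor, cytotoxic, dendritic cell, and epithelial and neural) the highest and lowest tumors were the same under all 5 scalings.

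No paired analysis was possible because a single group was described, with no other group to pair it with. Counts limit genes near 20, where counting alone gives a median CV of 0.149 between 20 and 100 scaled counts.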
